A study of Homo sapiens with 24 samples.

Results

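Small nucleolar RNA (snoRNA) host genes are transcribed by RNA polymerase II and carry snoRNAs inside their introns. The snoRNAs are released when the host RNA is spliced and debranched, and they then guide 2′-O-methylation (box C/D snoRNAs) or pseudouridylation (box H/ACA snoRNAs) of ribosomal RNA. What is left of a noncoding host is a spliced, polyadenylated RNA with only short reading frames. Ribosomes that translate such a frame stop early, and nonsense-mediated decay (NMD) then removes the RNA, so many hosts are short-lived and rise when translation or NMD slows. Many also start, like the mRNAs of ribosomal proteins, with a C followed by an unbroken run of pyrimidines, the terminal oligopyrimidine (TOP) tract.

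The 10 genes described are the noncoding hosts GAS5, SNHG1, SNHG5, SNHG6, SNHG7, SNHG8, SNHG12, SNHG15, SNHG16 and ZFAS1, taken by gene name from the 58138 names in each count table. GAS5, SNHG1, SNHG5, SNHG6, SNHG16 and ZFAS1 host box C/D snoRNAs. SNHG7, SNHG8 and SNHG15 host box H/ACA snoRNAs, and SNHG12 hosts both kinds.

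The study measured steady-state RNA after changing the RPRD proteins, which bind the C-terminal domain of RNA polymerase II. RNA from 24 samples of 2 human embryonic kidney lines was counted, in 12 groups of 2. The 16 HEK293T samples, from a line that carries the SV40 large T antigen, were transfected with siRNA. CTRL received a control siRNA. The labels name a single target in RPRD1A_KD, RPRD1B_KD and RPRD2_KD, and all 3 in RPRD1A_RPRD1B_RPRD2_KD. The groups with a pair of targets are RPRD1A_RPRD2_KD, RPRD1B_RPRD2_KD and RPRD1A_RPRD1A_KD. The label of the last names RPRD1A in both positions and was kept as it stands. The 8 Flp-In T-REx 293 samples come from a line with a single recombination site and the Tet repressor, in which an inserted gene is switched on by tetracycline. Their groups are FLP (untreated), FLP_TET (tetracycline), RPRD1B_FL (untreated) and RPRD1B_FL_TET (tetracycline). FL is not explained in the labels. Transfection or induction lasted 48 h. The labels do not say that replicates 1 and 2 came from separate cultures, so every p-value measures only the spread between these samples, which may be technical.

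Libraries were made from the 3′ ends of polyadenylated RNA, and a gene's value is its count scaled to the size of the library (CPM, a unit corrected for depth but not for gene length). Log2 differences are from the fitted model. Totals in genes ran from 1817246 to 3531106 counts per library, so that 3 counts, the smallest number taken as a signal, correspond to 0.85 to 1.65 CPM. RPRD1A was at 156 to 166 CPM in CTRL and at 14.7 to 27.6 CPM in the 8 libraries whose label names it. It was also below both controls in the silenced groups that do not name it. There it was at 86.4 and 102 CPM in RPRD1B_KD, 75.0 and 99.7 in RPRD2_KD, and 69.7 and 85.3 in RPRD1B_RPRD2_KD. RPRD1B_KD and RPRD2_KD thus did not differ from CTRL in their named target alone. In RPRD1A_KD, RPRD1B was at 27.5 and 23.45 CPM and RPRD2 at 104.6 and 89.0 CPM. RPRD1B was at 28.2 to 28.5 CPM in CTRL and at 3.99 to 14.8 CPM in the 6 libraries whose label names it. In RPRD1A_RPRD1A_KD, whose label does not name it, RPRD1B was at 14.25 and 8.11 CPM, in the range of those 6. RPRD2 was at 98.6 to 102 CPM in CTRL against 31.1 to 70.2 CPM in its 8. In the Flp-In cells RPRD1B was highest in RPRD1B_FL_TET, at 83.9 and 64.6 CPM, against 29.2 to 43.8 CPM in the other 6 libraries. Among genes known from 293 cells, NEFL was at 79.9 to 148 CPM in the Flp-In cells and at 1.03 to 6.76 CPM in HEK293T, while ALB, CD3E, CDH5 and PTPRC had at most 1 count in any library. Some libraries stood apart from the others of their cell line. The second RPRD1A_RPRD2_KD library was the lowest of 16 for 19.6% and the highest for 17.1% of 11834 tested genes. The first FLP library was the lowest of 8 for 22.6% and the highest for 21.5% of 11948. For the first RPRD1B_FL_TET library these shares were 20.7% and 20.4%.

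The gene starts are shown because a TOP tract is the sequence feature for which this class of RNA is known. RefSeq promoters (GRCh38.p14) were matched for 8 of the 10 genes, all but SNHG6 and SNHG15. Each line gives 20 bases before the annotated start and 21 bases from it, 5′ to 3′ on the strand of the gene. Capitals mark a C followed by at least 4 bases of C or T, taken from the match nearest the start and at most 5 bases from it. The windows are chr1:173869025-173869065 (minus strand) for GAS5, chr11:62855865-62855905 (minus) for SNHG1, chr6:85678713-85678753 (minus) for SNHG5 and chr9:136728164-136728204 (minus) for SNHG7. The other 4 are chr4:118278742-118278782 (plus) for SNHG8, chr1:28581853-28581893 (minus) for SNHG12, chr17:76557744-76557784 (plus) for SNHG16 and chr20:49278622-49278662 (plus) for ZFAS1.
GAS5: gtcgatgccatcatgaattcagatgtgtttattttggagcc
SNHG1: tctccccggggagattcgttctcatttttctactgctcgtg
SNHG5: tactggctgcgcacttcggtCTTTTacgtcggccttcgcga
SNHG7: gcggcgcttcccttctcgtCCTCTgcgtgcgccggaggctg
SNHG8: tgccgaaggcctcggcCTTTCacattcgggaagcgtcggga
SNHG12: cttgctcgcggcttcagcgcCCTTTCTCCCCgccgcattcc
SNHG16: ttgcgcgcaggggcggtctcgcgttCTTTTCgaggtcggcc
ZFAS1: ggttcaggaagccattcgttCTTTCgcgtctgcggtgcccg

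The annotated first base was such a C in SNHG5, SNHG12 and ZFAS1, 3 of 8 genes (37.5%). In all 3 the base before it is a pyrimidine too, so the run of pyrimidines is longer than the capitals. Of all 27305 RefSeq promoters, 4.04% met the same rule, and of 63 cytosolic ribosomal protein genes 68.3%. It lay within 5 bases of the start in 6 of the 8 (75%), against 21.1% of all promoters and 81% of the ribosomal protein genes. The shift was 1 base upstream in SNHG7, 4 upstream in SNHG8 and 5 downstream in SNHG16. Neither the GAS5 nor the SNHG1 window held these letters within that distance. The GAS5 window lies upstream of the whole GAS5 gene of GENCODE 29 (chr1:173863900-173868882). It therefore does not show the start of any GAS5 transcript annotated there. Of the 29 annotated GAS5 transcripts in GENCODE 29, 6 (20.7%) begin with the tract, against 2.41% of all 206694 transcripts. For the hosts without a matched promoter it begins 3 of 5 SNHG6 and 0 of 10 SNHG15 transcripts. Elsewhere it begins 1 of 25 SNHG1, 3 of 23 SNHG5, 0 of 4 SNHG7 and 1 of 5 SNHG8 transcripts. For SNHG12, SNHG16 and ZFAS1 it begins 4 of 17, 2 of 8 and 3 of 10. The start was only read on the strand of the gene.

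In GENCODE 29 (GRCh38) GAS5 lies at chr1:173863900-173868882, SNHG1 at chr11:62851988-62855914, SNHG5 at chr6:85660950-85678748 and SNHG16 at chr17:76557766-76565348. ZFAS1 lies at chr20:49278178-49295738, SNHG7 at chr9:136721366-136728184, SNHG8 at chr4:118278709-118279823, SNHG12 at chr1:28578538-28583132 and SNHG15 at chr7:44983023-44986961. SNHG6 is on chromosome 8. Genes on the opposite strand overlap GAS5 (ZBTB37, GAS5-AS1), SNHG6 (MCMDC2), SNHG7 (FAM69B), SNHG12 (TRNAU1AP), SNHG16 (AC015802.6) and ZFAS1 (ZNFX1 among them). The strand setting of the counting is not given in the sources used here, so reads in these overlaps cannot be assigned to a strand.

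All 10 hosts were detected in every library, with 54 counts as the lowest value (SNHG12), and together they took 0.162 to 0.216% of the counts in genes. The snoRNAs inside them were nearly absent from these tables. Of 37 snoRNA names listed for the 10 hosts, 32 were in the tables, and 27 of those had 0 counts in all 24 libraries. The 32 names summed to 196 counts, against 110663 counts of the hosts. SNORD1B, in SNHG16, held 182 of the 196. The values below therefore describe reads assigned to the host genes and not the snoRNAs. Spliced and unspliced host RNA were not told apart.

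Silencing was compared with CTRL to ask whether the steady-state level of these short-lived RNAs follows the RPRD proteins. No host passed the test in any of the 7 silenced groups (edgeR's quasi-likelihood test, Benjamini-Hochberg adjusted p under 0.05, here "called"). Few genes did in these fits, which have no term for the replicate number. Of 11834 tested, 0.00845% were called in RPRD1A_KD, RPRD1B_KD, RPRD2_KD and RPRD1A_RPRD2_KD. The share was 0.0169% in RPRD1A_RPRD1A_KD, RPRD1B_RPRD2_KD and RPRD1A_RPRD1B_RPRD2_KD. With that term no host was called either, and the closing section gives how the counts of all called genes moved. The 70 log2 fold changes (10 hosts in 7 groups) ran from -0.67 to 0.26, and 66 of them lay within 0.3 of 0. The smallest adjusted p was 0.62. DESeq2 called no host in these groups either. At an unadjusted p under 0.05 there were 2 of 70, both in RPRD1A_RPRD2_KD, where 7.07% of all genes were below it. That share was 2.64% in RPRD1A_KD, 3.46% in RPRD1B_KD, 3.84% in RPRD2_KD, 2.51% in RPRD1B_RPRD2_KD and 3.99% in both remaining groups. In bulk RNA, fewer cells with a transcript and less of it per cell cannot be told apart.

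The width of the intervals sets what could have been seen. For 67 of the 70 changes the 95% interval lay within 1 log2 unit of 0, so a doubling or halving was outside it. SNHG5, a host of SNORD50A and SNORD50B, was measured most tightly, with changes of -0.04 to 0.15 and interval bounds of -0.33 and 0.45. GAS5 had a mean standard error (SE) of 0.39 log2 units, against 0.14 to 0.25 for the other 9 hosts, and intervals from -1.22 to 0.88. With the replicate number as a term of the fit its SE was 0.12 to 0.13, below that of 7 of the other hosts, so the width of these intervals rests on leaving that term out. Over the mean of all 7 silenced groups the 10 changes ran from -0.13 (ZFAS1) to 0.05 (SNHG5), with a median of -0.02 against -0.01 for all genes. There 0 of 10 hosts were called (0.0169% of all genes), and 0 of 10 were below an unadjusted p of 0.05 (4.04%).

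**Figure D1:**
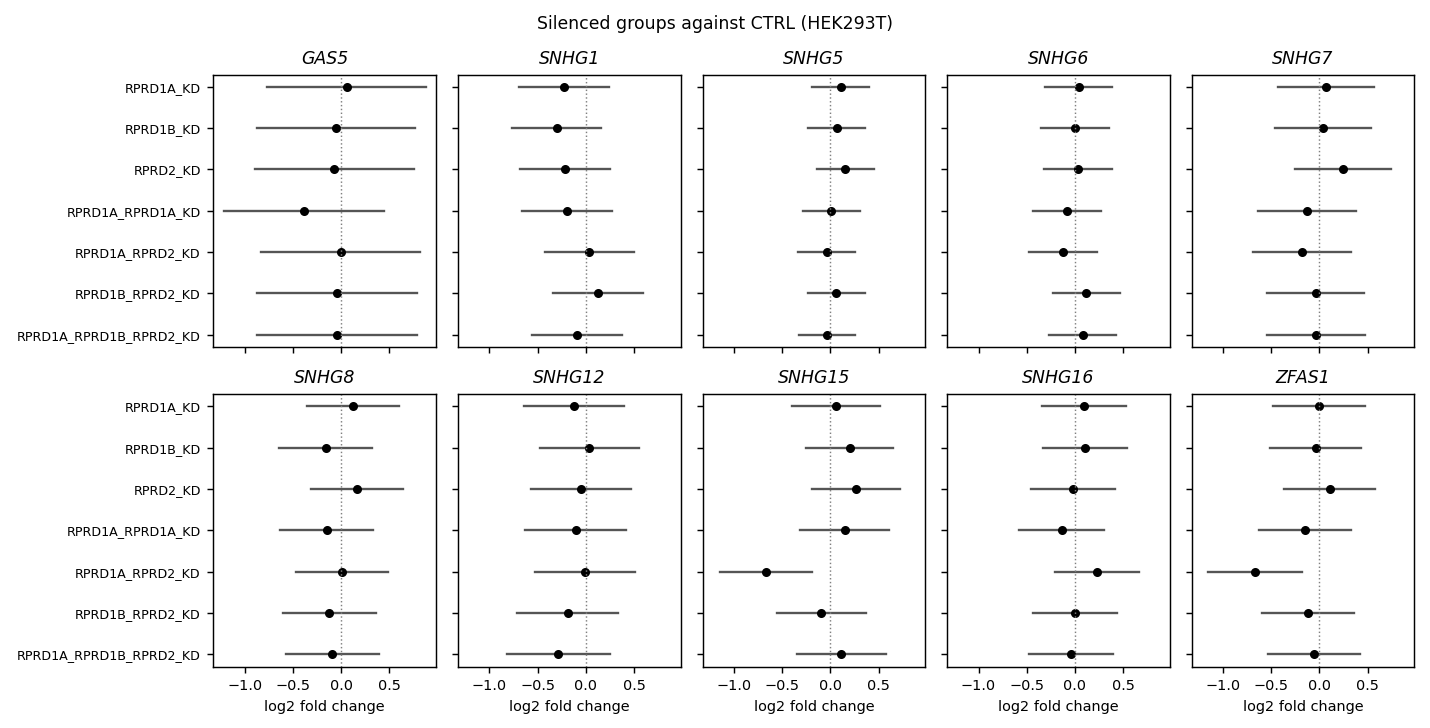
Log2 fold change against CTRL (points) with 95% intervals (bars) for each of the 10 host genes in the 7 silenced HEK293T groups, from edgeR's fit over all 8 groups. In this fit, which has no term for the replicate number, GAS5 has the widest intervals, and only SNHG15 and ZFAS1 in RPRD1A_RPRD2_KD have an interval that does not reach 0.

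Among the box C/D hosts in HEK293T, SNHG1 ranged from 153 to 292 CPM over the 16 libraries (median 200.1), with its lowest group mean in RPRD1B_KD (178 ± 36 CPM, SD, n = 2) and its highest in RPRD1B_RPRD2_KD (239 ± 75). SNHG5 ranged from 460 to 563 CPM (median 504.5), from 479 ± 9.2 CPM (SD, n = 2) in RPRD1A_RPRD2_KD to 547 ± 4.3 in RPRD2_KD. SNHG6, host of SNORD87, ranged from 126 to 174 CPM (median 162.5). All of its 7 steps between neighbouring groups, ordered by mean, overlapped in their replicate values, as did all 7 for GAS5, SNHG1, SNHG7, SNHG8, SNHG12 and SNHG16. SNHG16, host of SNORD1A, SNORD1B and SNORD1C, ranged from 202 to 321 CPM (median 253), with means from 224.5 ± 32 CPM (SD, n = 2) in RPRD1A_RPRD1A_KD to 290.2 ± 44 in RPRD1A_RPRD2_KD.

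Among the H/ACA hosts, SNHG7 ranged from 54.5 to 94.9 CPM (median 70.7) and SNHG8, host of SNORA24, from 148 to 263 CPM (median 198). SNHG12, host of SNORA44, SNORA61, SNORA16A and SNORD99, ranged from 28.5 to 49.2 CPM (median 37.8). SNHG7 and SNHG8 had their highest group mean in RPRD2_KD, at 83.2 ± 16 and 227.5 ± 50 CPM (SD, n = 2), and SNHG12 in RPRD1B_KD, at 42.6 ± 8.2. The replicate pairs of these genes overlapped those of CTRL in all 7 silenced groups. Over the 10 hosts and 7 groups, 10 of 70 comparisons had no overlap between the 2 silenced and the 2 control libraries. Of all genes 28.1, 28.6 and 32.2% had none in RPRD1A_KD, RPRD1B_KD and RPRD2_KD. The share was 27.7% for RPRD1A_RPRD2_KD, 27.9% for RPRD1B_RPRD2_KD, 31.5% for RPRD1A_RPRD1A_KD and 31.6% with all 3 silenced.

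SNHG15 and ZFAS1 were lower in RPRD1A_RPRD2_KD than in CTRL, without passing the test. SNHG15, which hosts SNORA9, was at 62.7 and 65.6 CPM in the 2 CTRL libraries and at 47.55 and 34.4 CPM in RPRD1A_RPRD2_KD. Its values in the other 6 silenced groups ran from 47.4 to 79.7 CPM. Both RPRD1A_RPRD2_KD libraries were thus below both controls, and the second was the lowest of all 16. The log2 fold change was -0.66 (SE 0.23), with an unadjusted p of 0.0093 and an adjusted p of 0.62. The control pair lay close together, and 5 of the 7 silenced groups did not overlap it, 4 above and 1 below.

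ZFAS1, which hosts SNORD12, SNORD12B and SNORD12C, was at 96.9 and 129.9 CPM in CTRL and at 94.0 and 51.15 CPM in RPRD1A_RPRD2_KD. The first of these libraries was close to the first control, and the second was the lowest of all 16. In the other 6 silenced groups ZFAS1 ran from 93.4 to 131 CPM. The log2 fold change was -0.67 (SE 0.23, unadjusted p 0.010, adjusted p 0.62). Without the second RPRD1A_RPRD2_KD library it was -0.28 (adjusted p 1.00), and without the first it was -1.14 (adjusted p 0.0044). For SNHG15 the change without the second library was -0.43 (adjusted p 1.00).

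That second library was also the lowest of 16 for SNHG6 (126 CPM) and SNHG7 (54.5 CPM) and the highest for SNHG16 (321 CPM). Across genes, its level relative to the mean of HEK293T libraries followed the GC content of transcripts with a Spearman correlation of 0.42, where the other 15 ran from -0.21 to 0.09. The part of this in the SNHG15 and ZFAS1 values was not tested. Against the sum of the RPRD1A_KD and RPRD2_KD effects, SNHG15 was lower by -0.99 log2 units (SE 0.31, unadjusted p 0.0056) and ZFAS1 by -0.77 (SE 0.32, unadjusted p 0.029). Neither was called, nor was any of the 11834 genes (0%), while 7.18% were below an unadjusted p of 0.05. For RPRD1B and RPRD2 no host was called (0% of genes), and none was below an unadjusted p of 0.05 (3.3%).

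**Figure D2:**
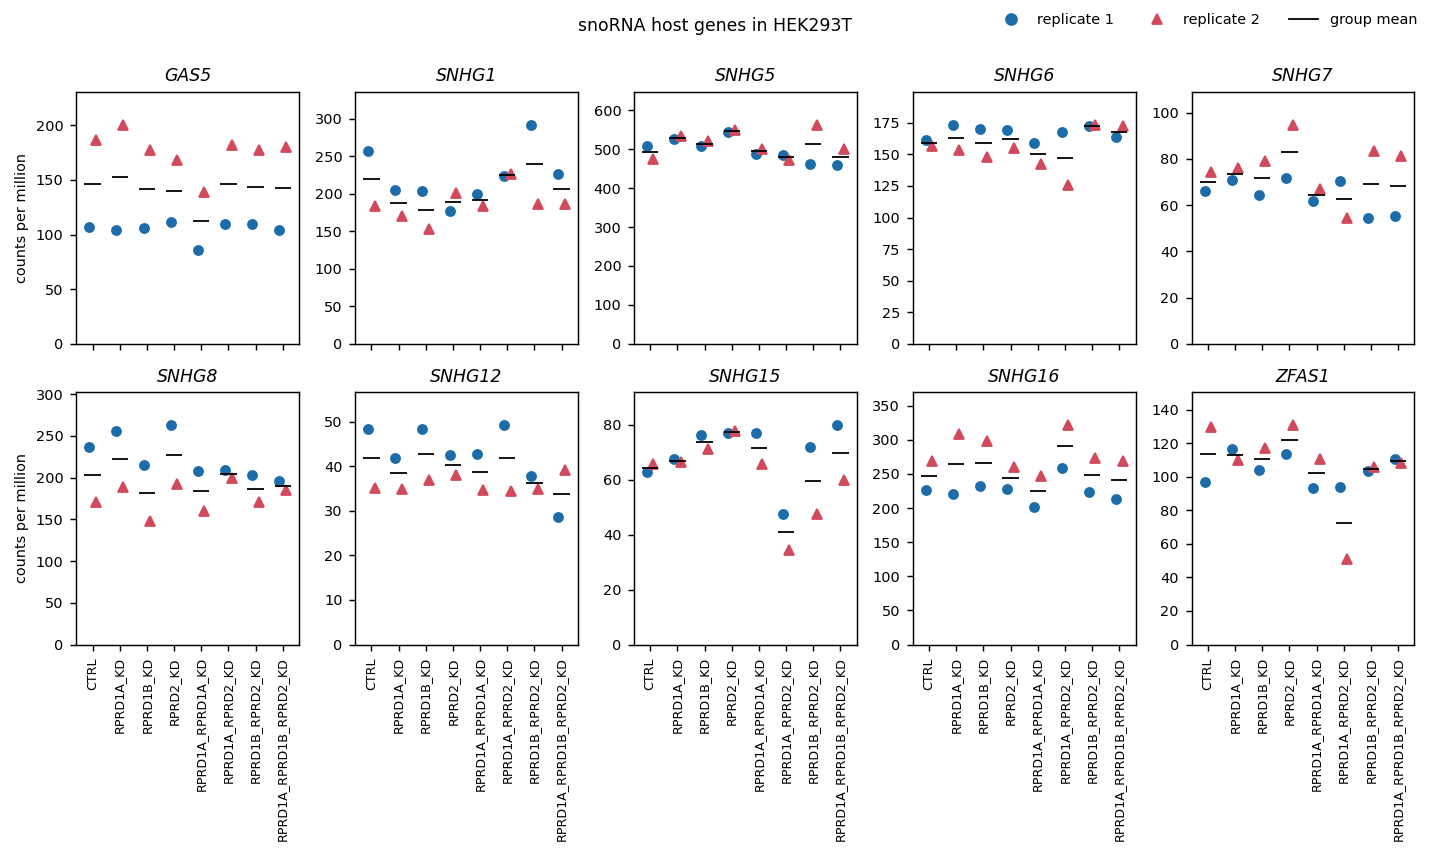
Level (CPM, linear axis from 0) of each host gene in the 16 HEK293T libraries by group, with replicate 1 as circles, replicate 2 as triangles and the group mean as a line. In the GAS5 panel every triangle lies above every circle, and in the SNHG15 and ZFAS1 panels the RPRD1A_RPRD2_KD group holds the lowest library.

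The largest difference of GAS5 in HEK293T was not between groups but between the replicate numbers within them. GAS5, an RNA known to build up when growth or translation slows, was at 107, 104, 106, 111, 85.5, 109.9, 109.9 and 104.5 CPM in the 8 libraries numbered 1, in the group order of the plot of HEK293T levels (CTRL, the 3 single groups, then RPRD1A_RPRD1A_KD, RPRD1A_RPRD2_KD, RPRD1B_RPRD2_KD and the group with all 3 silenced). In the libraries numbered 2 it was at 187, 201, 178, 168, 139, 182, 177 and 180.4 CPM. Every library numbered 2 was above every library numbered 1, with none overlapping. Within a group the ratio was 1.51 to 1.93. In a fit of group and replicate number, added after the levels had been seen, GAS5 was 1.68-fold higher in number 2 (95% interval 1.54 to 1.84, log2 0.75, SE 0.062, adjusted p 3.37e-07, higher in 8 of 8 groups). By p it ranked 4 of 11834 genes, and 2.34% of genes had a larger change. The labels do not say what the number stands for (a culture, a day or a preparation).

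Of the 10 hosts, 4 were called for the replicate number (20.1% of all genes were), 2 higher and 2 lower in number 2, and 7 were below an unadjusted p of 0.05 (32.6%). SNHG16 was higher in 8 of 8 groups, at 202 to 259 CPM in number 1 and 247 to 321 CPM in number 2 (log2 0.31, SE 0.055, adjusted p 0.00055). SNHG8 was lower in 8 of 8 groups, at 196 to 263 CPM against 148 to 199.6 CPM (log2 -0.34, SE 0.066, adjusted p 0.0013). Of the libraries numbered 2 only that of RPRD1A_RPRD2_KD, at 199.6 CPM, lay above the lowest numbered 1. SNHG1 was lower in 6 of 8 groups (log2 -0.25, SE 0.079, adjusted p 0.029). That call was lost with a correction for GC content (adjusted p 0.058) and without either library of CTRL, RPRD1A_KD, RPRD1B_KD, RPRD1B_RPRD2_KD or RPRD1A_RPRD1B_RPRD2_KD (adjusted p 0.063 to 0.105). GAS5, SNHG16 and SNHG8 stayed called, each in the same direction, in all 21 alternatives run.

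SNHG7 was higher in number 2 in 7 of 8 groups (log2 0.24, adjusted p 0.083), the exception being RPRD1A_RPRD2_KD, and without either library of that group it was called, at 0.32 (adjusted p 0.00084 and 0.00099). SNHG12 was lower in 7 of 8 groups (log2 -0.23, adjusted p 0.12), and without either library of RPRD1A_RPRD1B_RPRD2_KD, its exception, it was called at -0.32 (adjusted p 0.029 and 0.030). SNHG5, SNHG6, SNHG15 and ZFAS1 had log2 differences of -0.21 to 0.05 and were not called. A single direction in all 8 groups was held by 3 of the 10 hosts and by 12.8% of all genes. The share of reads outside annotated genes was 34.3 to 36.7% in the libraries numbered 1 and 27.4 to 29.8% in those numbered 2, and the part of this in the host values was not tested.

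**Figure D3:**
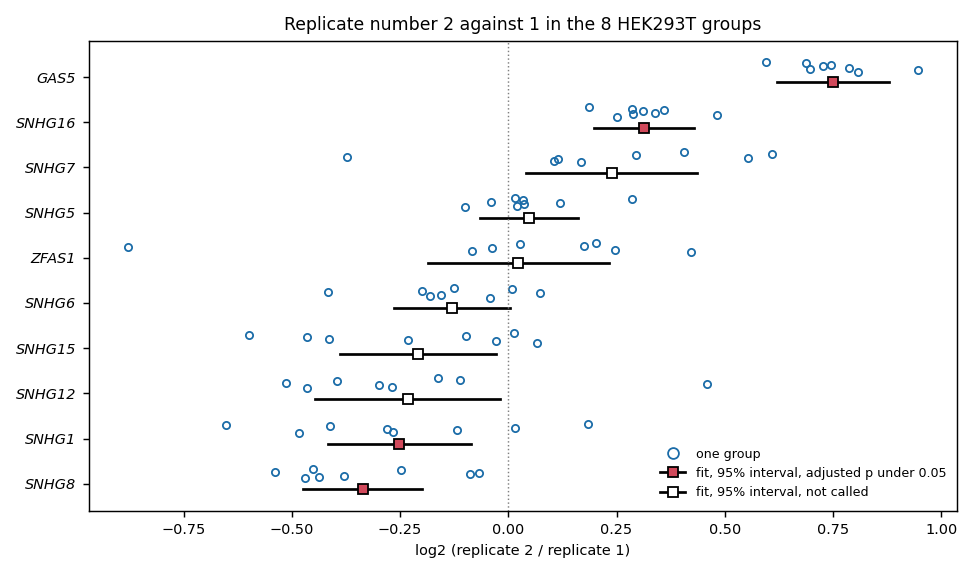
Log2 ratio of the library numbered 2 to the library numbered 1 in each of the 8 HEK293T groups (open circles), with edgeR's estimate and 95% interval below them (squares, filled where the adjusted p is under 0.05). All 8 GAS5 points lie at 0.59 or above and all 8 SNHG8 points lie below 0.

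Other hosts and genes tied to translation and decay were read in the same fit, in lists chosen with earlier results of these data known. Of 12 other noncoding snoRNA hosts tested, 6 were called higher in number 2 and 0 called lower (9.08% and 11% of all genes), with a median log2 difference of 0.20 against 0.00047 for all genes. SNHG25 had a median of 382 CPM in number 1 and 528 CPM in number 2 (log2 0.53, adjusted p 2.20e-05), and SNHG9 of 111 and 146.5 CPM (log2 0.41, adjusted p 0.00029). SNHG11 (log2 0.60, adjusted p 0.017) and LRRC75A-AS1 (log2 0.35, adjusted p 0.00068) were also called, and all 4 were higher in 8 of 8 groups.

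Of 7 coding mRNAs known as NMD targets, 6 were called higher in number 2 and 0 called lower (9.08% and 11% of all genes), with a median of 0.38. Several of them are also known from the stress response that acts through ATF4. ATF4, its transcription factor, was at 722 to 963.5 CPM in number 1 and 877 to 1587 CPM in number 2 (log2 0.38, adjusted p 0.00080), higher in 8 of 8 groups. ATF3, a factor induced by it, was at 8.98 to 17.5 and 16.2 to 36.2 CPM (log2 1.16, adjusted p 4.93e-05), also in 8 of 8. DDIT3, which encodes CHOP, was higher by 0.66 in 8 of 8 groups (adjusted p 0.0010), and GADD45A, a growth arrest gene, by 0.66 in 7 of 8 (adjusted p 0.0069). Of 20 NMD factors, 0 were called higher and 6 called lower (9.08% and 11% of all genes), with a median of -0.14. Among them were SMG1, the kinase of UPF1 (log2 -0.37, adjusted p 0.0060), UPF3B (-0.37, adjusted p 0.0012) and SMG5 (-0.35, adjusted p 0.038).

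For each list in this paragraph, the shares over all genes are 9.08% called higher and 11% called lower. Of 78 cytosolic ribosomal protein genes, 28 were called higher and 5 called lower in number 2 (median 0.14). Among them were RPS23 (log2 0.56, adjusted p 3.37e-07) and RPS7 (log2 -0.74, adjusted p 0.00016). Of 47 protein-coding snoRNA hosts, 14 were called higher and 7 called lower (median 0.01), from PPAN (0.70, adjusted p 3.06e-05) to EIF4G1 (-0.49, adjusted p 8.79e-06). Ribosomal protein genes have many near-identical processed copies, so the counts of RPS7, at a median of 29.9 CPM in number 1, and of others like it are uncertain. RNA decay enzymes (2 called higher, 5 called lower of 27) and snoRNP proteins (3 called higher, 3 called lower of 16) had calls in both directions, with DIS3 lower by -0.32 (adjusted p 0.0041) and the snoRNP core protein gene NOP58 by -0.34 (adjusted p 0.0020).

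None of these lists had a called gene in the mean of the 7 silenced groups against CTRL in edgeR (0.0169% of all genes were called). Below edgeR's unadjusted p of 0.05 were 2 of 12 noncoding hosts, 1 of 27 decay enzymes and 1 of 16 snoRNP genes. Of 47 protein-coding hosts, 20 NMD factors, 7 NMD target mRNAs and 78 ribosomal protein genes 0 were below it. The share over all genes was 4.04%. The other noncoding hosts SNHG3 (log2 -0.47) and SNHG19 (-0.37) had unadjusted p of 0.017 and 0.044 there and an adjusted p of 1 each. The exonuclease XRN1 was at -0.37 (unadjusted p 0.045) and RUVBL1, of the snoRNP assembly complex, at -0.32 (unadjusted p 0.017). The NMD factors SMG1 (-0.30) and MAGOH (-0.27) had unadjusted p of 0.15 and 0.092.

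In the Flp-In cells no host was called for the replicate number (0% of all genes), none was below an unadjusted p of 0.05 (3.57%), and DESeq2 called none. GAS5 was at 72.3 to 87.4 CPM over the 8 libraries and was higher in number 2 in 1 of 4 groups. Tetracycline in the parent line was compared to see what the inducer alone does. None of the 10 hosts passed the test in FLP_TET against FLP (1.02% of 11948 genes did), but 5 were below an unadjusted p of 0.05 (22.7% of genes), 4 lower and SNHG1 higher. DESeq2 called SNHG6 (adjusted p 0.040).

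SNHG12 was at 53.2 and 25.0 CPM in FLP, 18.9 and 20.02 in FLP_TET, 27.0 and 28.0 in RPRD1B_FL, and 24.01 and 23.1 in RPRD1B_FL_TET. Both FLP_TET libraries were below the other 6, and the first FLP library was the highest of the 8. Its log2 change in FLP_TET against FLP was -0.98 (SE 0.27, adjusted p 0.060), and -0.36 without the first FLP library (adjusted p 0.72). SNHG6 was at 211.5 and 139 CPM in FLP, 115 and 102 in FLP_TET, 137 and 157 in RPRD1B_FL, and 115 and 154 in RPRD1B_FL_TET. The first FLP library was again the highest, and the FLP_TET pair lay below both FLP libraries (log2 -0.69, SE 0.19, adjusted p 0.062). Without the first FLP library the change was -0.36 (adjusted p 0.65).

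SNHG8 was at 294 and 251 CPM in FLP, 174 and 205 in FLP_TET, 247.5 and 281 in RPRD1B_FL, and 186 and 267 in RPRD1B_FL_TET. The FLP_TET pair was below both FLP libraries (log2 -0.52, SE 0.17, adjusted p 0.090), and the value without the first FLP library was -0.40 (adjusted p 0.63). ZFAS1 was at 253 and 155 CPM in FLP, 137 and 138 in FLP_TET, 133 and 139 in RPRD1B_FL, and 156 and 139.9 in RPRD1B_FL_TET. Only the first FLP library departed from the other 7 (log2 -0.56, SE 0.18, adjusted p 0.089, and -0.17 without that library, adjusted p 0.81). SNHG1 went the other way, from 80.2 and 97.6 CPM to 107 and 127 CPM (log2 0.39, SE 0.16, adjusted p 0.16).

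The 2 FLP and the 2 FLP_TET libraries did not overlap for 8 of the 10 hosts, 3 higher and 5 lower, where 58% of all genes did not overlap (29.1% higher, 28.9% lower). The first FLP library was the highest of 8 for SNHG6, SNHG8, SNHG12 and ZFAS1 and the lowest for SNHG1, SNHG7 and SNHG16. Across genes, the log2 change in FLP_TET against FLP followed the GC content of transcripts with a Spearman correlation of 0.54. With a correction for GC content SNHG12 was called (log2 -1.01, adjusted p 0.047) and the other 9 hosts were not. The same correction took SNHG6 to -0.43 (adjusted p 0.10) and SNHG8 to -0.28 (adjusted p 0.23).

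**Figure D4:**
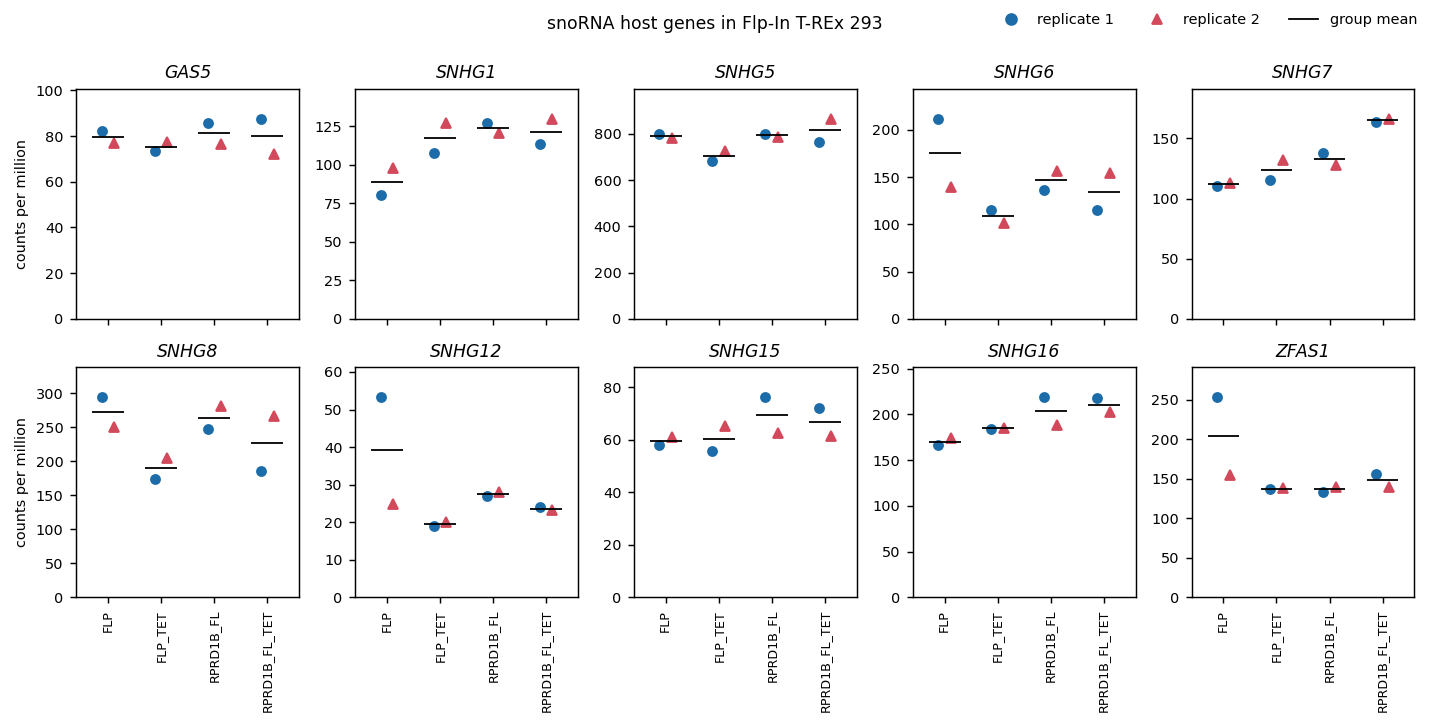
Level (CPM, linear axis from 0) of each host gene in the 8 Flp-In T-REx 293 libraries by group, with replicate 1 as circles, replicate 2 as triangles and the group mean as a line. The first FLP library is the highest point for SNHG6, SNHG8, SNHG12 and ZFAS1, and both RPRD1B_FL_TET libraries are the highest for SNHG7.

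In the RPRD1B_FL line no host and no other gene, RPRD1B included, was called for tetracycline (0% of 11948, 6.13% below an unadjusted p of 0.05, no host below it, and 0 genes called by DESeq2). The host changes ran from -0.23 (SNHG8) to 0.31 (SNHG7). Over the mean of both lines no host was called (2.98% of genes), and 4 of 10 were below an unadjusted p of 0.05 (23.9%). SNHG12 was at -0.60 (SE 0.19, adjusted p 0.074), SNHG6 at -0.41 (SE 0.13, adjusted p 0.078), SNHG8 at -0.37 (SE 0.12, adjusted p 0.074) and SNHG7 at 0.23 (SE 0.11, adjusted p 0.20). Without the first FLP library SNHG12 was at -0.29 (adjusted p 0.44), SNHG6 at -0.24 (adjusted p 0.41) and SNHG8 at -0.32 (adjusted p 0.28). With the GC correction they were at -0.63, -0.20 and -0.18 (adjusted p 0.079, 0.29 and 0.29). The difference between the lines in their tetracycline effect was called for no host and no gene (0%, with 3.99% of genes below an unadjusted p of 0.05), and 2 of 10 hosts, SNHG6 and ZFAS1, were below that unadjusted p.

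The other noncoding hosts SNHG9 and SNHG25 were called higher with tetracycline, calls that depend on the first FLP library. Without it 0 genes were called in FLP_TET against FLP and 1 gene in the mean over both lines, so at most 1 of the calls below was kept. SNHG25 went from 245 and 307 CPM in FLP to 426 and 472.5 CPM in FLP_TET (log2 0.70, adjusted p 0.047). Over the mean of both lines it was higher by 0.52 (adjusted p 0.035) and SNHG9 by 0.53 (adjusted p 0.036), while none of the 12 was called lower. In the same comparison 1 of 20 NMD factors was called, UPF3B, lower by -0.61 (adjusted p 0.048). Of 7 NMD target mRNAs 1 was called, GADD45A, lower by -0.62 (adjusted p 0.037). Of 16 snoRNP genes 1 was called, NOP58, lower by -0.73 (adjusted p 0.035). Of 77 ribosomal protein genes 3 were called higher and 3 called lower (2.98% of all genes were called), among them RPL26 (-0.59, adjusted p 0.048). UPF3B, NOP58 and RPL26 had their highest value of 8 in the first FLP library, at 101, 119.6 and 2634 CPM, and SNHG25 and SNHG9 their lowest, at 245 and 93.0 CPM.

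A comparison of the RPRD1B_FL cells with the parent cells asks which transcripts differ between the lines, with and without tetracycline. Without it RPRD1B was at 43.2 and 43.8 CPM in RPRD1B_FL against 34.6 and 34.1 CPM in FLP. RPRD1A was also lower in RPRD1B_FL_TET, at 25.4 and 24.4 CPM, against 44.2 to 61.6 CPM in the other 6 libraries. The part of either gene in the host values was not tested. SNHG7 was at 111 and 113 CPM in FLP, 115 and 132 in FLP_TET, 138 and 128 in RPRD1B_FL, and 164 and 166 in RPRD1B_FL_TET. The last pair was above the other 6 libraries, and neither RPRD1B_FL library was below a FLP library. Over the mean of both treatments SNHG7 was higher in the RPRD1B_FL line by 0.33 log2 units (SE 0.11, adjusted p 0.086). None of the 10 hosts was called there (4.08% of genes were), and 3 were below an unadjusted p of 0.05 (17.5%), namely SNHG7, SNHG1 at 0.26 and SNHG16 at 0.22. DESeq2 called none.

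With tetracycline all 10 hosts had a positive change in RPRD1B_FL_TET against FLP_TET, from 0.05 (SNHG1) to 0.42 (SNHG7, SE 0.15, adjusted p 0.26), with a median of 0.20 against 0.0036 for all genes. With 1 library left out 3 of them could turn negative: SNHG1 was at -0.07 without the first FLP_TET library and -0.05 without the second RPRD1B_FL_TET library, SNHG8 at -0.03 without the latter, and GAS5 at -0.06 without the first RPRD1B_FL_TET library. None was called in edgeR (1.11% of genes) or DESeq2, and SNHG7 alone was below an unadjusted p of 0.05 (10.3%). Without tetracycline 6 were positive and 4 negative, with a median of 0.016 against 0.0078. SNHG1 was at 127 and 121 CPM in RPRD1B_FL against 80.2 and 97.6 CPM in FLP (log2 0.48, SE 0.17, adjusted p 0.19). ZFAS1 was at 133 and 139 CPM against 253 and 155 CPM (-0.57, SE 0.18, adjusted p 0.14). None was called (1.18% of genes) in edgeR or DESeq2, and these 2 were below an unadjusted p of 0.05 (13.3%). Without the first FLP library ZFAS1 was at -0.18 (adjusted p 0.95) and SNHG1 at 0.35 (adjusted p 0.84). With a correction for GC content SNHG1 was called (0.54, adjusted p 0.045). FLP and FLP_TET libraries enter both these comparisons and the tetracycline comparison, so their values are not independent.

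Among the other lists in the mean over treatments, the NMD factor SMG9 was higher in the RPRD1B_FL line (0.44, adjusted p 0.041), as were GADD45B (0.63, adjusted p 0.0038) and TCP1, a chaperonin gene that hosts snoRNAs (0.51, adjusted p 0.0020). RPL37, a ribosomal protein gene and snoRNA host, was lower (-0.50, adjusted p 0.0033), as was SKIV2L2, the exosome helicase MTR4 (-0.52, adjusted p 0.012). Of the 12 other noncoding hosts 10 were positive and 0 called. The calls were 1 of 20 NMD factors, 1 of 7 NMD target mRNAs, 1 of 77 ribosomal protein genes and 1 of 27 decay enzymes. Of 46 protein-coding hosts 1 was called higher and 1 lower, and of 16 snoRNP genes 0 were called. The share over all genes was 4.08%.

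On a scale set over all 24 libraries the hosts differed in how they compared between the cell lines. The lines also differed in treatment, so that the line and the treatment cannot be told apart. Reads outside genes were 27.4 to 36.7% in the HEK293T and 15.3 to 19.5% in the Flp-In libraries. The part of this in the host values was not tested. SNHG7 had a median of 68.5 CPM in HEK293T and 134.9 CPM in the Flp-In cells, a ratio of 1.97, and SNHG5 of 490.5 and 817 CPM, a ratio of 1.67. ZFAS1 was also higher in all 8 Flp-In libraries than in all 16 HEK293T libraries (medians 145 and 106.5 CPM), and SNHG1 was higher in all 16 (194 and 123 CPM). The other 6 overlapped. Without overlap, 3 of 10 hosts were thus higher in the Flp-In cells (11.8% of 12803 genes) and 1 higher in HEK293T (8.7%).

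The 10 hosts did not vary as one set. Over the 16 HEK293T libraries the 45 pairwise Pearson correlations of log2 CPM ran from -0.65 (GAS5 with SNHG8) to 0.90 (GAS5 with SNHG16), with a median of 0.09. Over the 8 Flp-In libraries they ran from -0.88 (SNHG1 with ZFAS1) to 0.89 (SNHG12 with ZFAS1), with a median of 0.21. The points share library depth and replicate number, and in the Flp-In cells the first FLP library is the extreme point of SNHG1, SNHG12 and ZFAS1. The genes whose log2 CPM was most like the mean of the 10 hosts were AP005202.1 (r 0.87), NFE2L2 (0.85), VAPB (0.85), DNAJC9 (0.84) and PDCD7 (0.83) over 16 HEK293T libraries. Over 8 Flp-In libraries they included ACAT2 (0.97), RPS12 (0.95), MTIF2 (0.95) and BUD23 (0.94). The mean profile itself moved by 0.33 log2 units from its lowest to its highest HEK293T library and by 0.38 in the Flp-In cells.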

How the data were processed

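The deposited tables, 1 per sample, hold raw read counts by gene name, with 58138 names and 5 closing rows that were left out of totals and tests. Per the submitters' processing notes FastQC, STAR, HTSeq and DESeq2 were used with build GRCh38. Versions, annotation and strand setting are not given in the sources used here. Reads outside genes were 15.3 to 36.7%, ambiguous reads 1.3 to 1.83% and reads without a unique position 9.56 to 14.6% of all rows.

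Each cell line was fitted alone over all its groups with edgeR 4.0.16 (R 4.3.3): TMM scaling, filterByExpr (minimum count 10, total 15), quasi-likelihood F-test, Benjamini-Hochberg adjustment over all tested genes, threshold 0.05. Standard errors were taken from the F statistic. CPM use TMM library sizes. Intervals are 95% and depth limits cover counting error only. DESeq2 1.42.0 and the other alternatives are in the closing section. The script was tested on simulated data.

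Named genes are the 10 hosts, every called gene of each comparison list (up to 4 by size), else the 2 with the largest change at a mean of at least 10 CPM (for the silenced mean only part of these is given), and the 5 genes most correlated with the hosts' mean. Some genes that this rule names are not reported here. The hosts and the lists were chosen with earlier results of these data known. Positions and transcript GC content come from GENCODE 29 (54848 names matched), and starts from RefSeq. No 2 libraries of a group agreed within sampling noise.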

Additional observations from a re-analysis of the deposited data

Results flagged for a closer look

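The ZFAS1 estimates for tetracycline had opposite signs in the Flp-In lines, but the difference did not pass the test. In the parent line both libraries with tetracycline (137 and 138 CPM) were below both without it (253 and 155 CPM). There 58% of all genes had no overlap. In the RPRD1B_FL line both with tetracycline (156 and 139.9 CPM) were above both without it (133 and 139.3 CPM), the nearest 2 almost equal. The log2 change in that line was 0.12 (SE 0.19, edgeR's unadjusted p 0.53). The difference of the 2 effects was 0.683 log2 units (SE 0.26, 95% interval 0.14 to 1.22), and edgeR gave it an unadjusted p of 0.015 (adjusted p 0.99). The first FLP library, at 253 CPM, was the highest of the 8, and without it the effect in the parent line was -0.17. Over the 15 alternatives run, the difference of the 2 effects ran from 0.29 to 1.00 log2 units.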

How the results depend on the processing

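The alternatives were size factors by RLE, DESeq2, tests without the low-count filter or only on genes averaging at least 50 counts, fitting the compared groups alone, a GC correction, the replicate number as a block, the 2 together, omission of the second RPRD1A_RPRD2_KD library with the block, and leaving out each library in turn. Of 3920 values for single hosts 3861 kept their side of the threshold, 48 became called and 11 lost their call, and none that was called changed direction. Among values that were not called, 287 changed sign.

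For FLP_TET against FLP the number of hosts called rose from 0 to 1 with DESeq2 (SNHG6), 3 without a filter, 4 with only the compared groups, 1 with the GC correction and 1 with the GC correction and replicate block (SNHG12). Leaving out 1 library gave 0 to 4 there, with calls on omission of the second FLP library or any RPRD1B_FL or RPRD1B_FL_TET library. For the tetracycline mean it rose to 3 without a filter and ran from 0 to 4 with 1 library left out, where omission of the second FLP library gave 4 and of the second RPRD1B_FL_TET library 3. For RPRD1B_FL against FLP it was 1 (SNHG1) with the GC correction, 1 with the GC correction and replicate block, and 0 to 2 with 1 library left out: SNHG12 and ZFAS1 without the second FLP library, and ZFAS1 without either RPRD1B_FL_TET library. For RPRD1A_RPRD2_KD against CTRL leaving out 1 library gave 0 to 1, and for that group against the sum of single effects 0 to 2, both on omission of its first library. For RPRD1B and RPRD2 against the sum of single effects, omitting the second RPRD1A_RPRD2_KD library with the replicate block gave 1 (SNHG1, 0.63, adjusted p 0.028). The cause of these moves was not tested. A group left with 1 library is assumed to vary like the others.

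Deviations of same-numbered HEK293T libraries from their group means correlated at -0.013 to 0.52 over 28 pairs of groups, 26 of them over 0.1, and at -0.35 to 0.46 over 6 pairs in the Flp-In cells, 1 over 0.1. Both HEK293T exceptions involve RPRD1A_RPRD2_KD. The condition for taking the numbers as pairing was a correlation over 0.1 in every pair of groups, which neither line met, so the fits without the block are reported, although most HEK293T pairs were over it. With the replicate block alone 0 hosts were called in every comparison. The SE of GAS5 in the silenced groups went from 0.39 to between 0.12 and 0.13, and its lowest adjusted p was 0.49. Counts of all called genes moved more: in the 7 silenced groups from 1 or 2 to at most 13 with the block and to between 25 and 167 with the second RPRD1A_RPRD2_KD library also omitted, and in FLP_TET against FLP from 122 to 1 with the block, 0 with a mean count of 50 or more, 250 with DESeq2, 762 without a filter and 1273 with only the compared groups. The tetracycline mean went from 356 to 201 with the block, 156 with the GC correction, 0 with the count minimum, 908 without a filter and 1 without the first FLP library. RPRD1B_FL against FLP went from 141 to 306 with the GC correction, 292 without a filter and 48 without the first FLP library, RPRD1B_FL_TET against FLP_TET from 133 to 260, 229 and, with DESeq2 or the count minimum, 88 or 79, and the mean over treatments from 488 to 851 with the GC correction, 282 with DESeq2 and 294 with the count minimum. Counts for the replicate number in HEK293T were 2381, and 1490 with DESeq2. With 2 libraries a group and no replicate block, differences smaller than the half-widths of the intervals given could not be detected. That limit belongs to these fits and not to the depth alone. With the block the SE of SNHG16 in the silenced groups, for example, went from 0.21 to 0.11.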
